A study of Mus musculus with 36 samples.

Results

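Matrix metalloproteinases (MMPs) and the tissue inhibitors of metalloproteinases (TIMPs) were followed through the differentiation of brown pre-adipocytes in 9 genes: *Mmp2*, *Mmp3*, *Mmp11*, *Mmp13*, *Mmp14*, *Timp1*, *Timp2*, *Timp3* and *Timp4*. These genes were taken by name from the 55536 genes listed for each of 36 RNA sequencing libraries. Earlier results of these data were known when they were chosen. The cells came from a clonal line of mouse brown pre-adipocytes in which Cas9 had introduced frameshifts into *Rxra*, the gene of the nuclear receptor RXRα, and 2 such *Rxra*-/- lines, each grown from a single cell, were used as clones 48 and 66. Each clone was transduced with a hygromycin-selected retrovirus that carried wild-type mouse *Rxra* (RxraWT) or *Rxra* coding for alanine in place of serine at residue 22 (RxraSA). All cells thus lacked intact endogenous *Rxra* and expressed the receptor from the retroviral vector, and neither parental cells nor cells with an empty vector were among the libraries. Cells of day 0 were confluent and had been grown with insulin and triiodothyronine, cells of day 2 had in addition received dexamethasone, isobutylmethylxanthine and indomethacin from day 0 on, and cells of day 6 had returned to medium with insulin and triiodothyronine. There were 3 replicates of each clone, genotype and day, and hence 12 libraries per day. The sources differ on whether these replicates were technical or independent, so p-values measure the spread between libraries, which may be technical.

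MMPs are zinc-dependent endopeptidases that cleave collagens, gelatins and other components of the extracellular matrix, and most are secreted as inactive proenzymes. TIMPs bind the active site of MMPs and, at the cell surface, TIMP2 also takes part in the activation of pro-MMP2 by MMP14, which is anchored in the plasma membrane. Adipogenesis is accompanied by a replacement of the fibrillar, fibronectin-rich matrix of the precursor by a basement membrane, and MMP14 is known for its role in the collagen turnover of developing fat.

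The 9 genes differed in level by several orders of magnitude. Per length, as FPKM (fragments per kilobase of exon, scaled for depth by TMM), *Mmp14* was highest at day 0 with a median of 56.9 (40.2 to 94.8, 12 libraries), followed by *Timp2* with 51.9 (32.2 to 74.0), *Timp3* with 27.6 (20.0 to 48.1), *Timp1* with 18.2 (12.7 to 30.8) and *Mmp11* with 11.7 (9.98 to 18.1). The gelatinase *Mmp2* had a median of 3.85 FPKM, below *Mmp11* in 12 of 12 libraries and without overlap of the ranges, whereas the ranges of all other neighbours in this order overlapped. The collagenase *Mmp13*, the stromelysin *Mmp3* and *Timp4* had medians of 0.248, 0.0479 and 0.0277 FPKM. At day 2 the order began with *Mmp14* (7.85), *Timp2* (5.95), *Mmp11* (5.17) and *Timp1* (3.29), and at day 6 with *Mmp11* (13.1), *Mmp14* (12.9), *Timp1* (3.36) and *Timp2* (2.48). *Mmp11* was the higher of the first pair at day 6 in 6 of 12 libraries, so that these 2 genes could not be ordered.

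*Mmp3* and *Mmp13* were also close neighbours in the genome. Both lie on the plus strand of chromosome 9 (GRCm38), *Mmp13* at 7272514 to 7283331 and *Mmp3* at 7445822 to 7455975, separated by 162490 bases. In their region 9 protein-coding MMP genes were looked at. The other 7 of these had at most 2 counts in any library and 10 counts in all 36 libraries together. *Mmp1a*, which is not among the 9, had 0 counts in every library. The 150 bases before the annotated start of both genes are shown because they were the only ones among the members to hold 2 of the motifs searched for. Sequences came from RefSeq for GRCm38.p6, where 8 of the 9 members were found, and capitals mark the AP-1 heptamer TGAGTCA on either strand and the TATA box TATAAA. *Mmp3* is shown for chr9:7445672-7445821 and *Mmp13* for chr9:7272364-7272513, both on the plus strand.
Mmp3: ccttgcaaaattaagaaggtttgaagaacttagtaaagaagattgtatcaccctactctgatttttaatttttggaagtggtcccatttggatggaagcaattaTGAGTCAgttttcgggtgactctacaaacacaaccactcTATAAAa
Mmp13: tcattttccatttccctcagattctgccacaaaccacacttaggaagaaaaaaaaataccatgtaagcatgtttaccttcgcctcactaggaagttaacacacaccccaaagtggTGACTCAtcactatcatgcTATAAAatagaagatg
The heptamer began 46 bases before the start of *Mmp3* and, on the opposite strand, 35 bases before the start of *Mmp13*. The TATA box began 7 and 16 bases before these starts. In windows of 250 bases before to 50 bases after the start, 5.20% of 32851 RefSeq promoters held TGAGTCA on either strand and 13.6% held TATAAA. Neither motif was found in the windows of *Mmp11*, *Mmp14*, *Timp1*, *Timp2*, *Timp3* and *Timp4*. The motifs TGACGTCA (in 1.79% of all windows), a direct repeat of AGGTCA with 1 base between (0.0396%) and TTGCGCAA (0.183%) were not found in any of the 8 windows. These matches describe the letters of the windows and no binding was measured.

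Total counts ranged from 11351078 to 24349263 per library, with a median of 18338726. The labels give pool 1 for clone 48 and pool 2 for clone 66, so clone and pool cannot be told apart. *Rxra*, counted together from its own locus and from the vector, lay between 92.6 and 712 CPM (read pair counts scaled to a common depth by TMM). Of the brown adipocyte markers, *Plin1*, which coats lipid droplets, *Fabp4*, *Adipoq*, *Cebpa*, *Lpl* and *Pparg* rose between days 0 and 2, and 8 of the 8 markers tested rose, while *Ucp1*, the uncoupling protein of brown fat, stayed at or below 0.307 CPM on every day and *Cidea* at or below 1.66 CPM. Of 6 pre-adipocyte markers, 4 passed the filter on low counts and all 4 fell, with *Ly6a* lower by a log2 fold change of -4.05, and *Dlk1* and *Thy1* lay at or below 0.259 CPM. Of the defining markers of other cell types, *Ptprc* and *Adgre1* (macrophages), *Cdh5* and *Kdr* (endothelium) and *Myod1* (muscle) had at most 1 count in any library. Other genes of these lists were counted, with up to 204 counts of *Cd68*, 88 of *Lyz2* and 20 of *Csf1r* in a library. *Pecam1* reached 15, *Acta1* 202 and *Des* 530 counts. The summed level of the 7 macrophage markers was 6.86 to 12.7 CPM at day 0, 2.83 to 5.85 at day 2 and 5.44 to 11.7 at day 6, most of it from *Cd68*. The 6 endothelial markers summed to 0.157 to 1.34 CPM over all days. The 6 muscle markers summed to 3.11 to 6.52, 0.520 to 1.77 and 21.4 to 39.1 CPM, of which *Des* made up the largest share. One library, replicate 1 of clone 48 with RxraSA at day 0, stood apart in 4 genes whose counts often reflect ribosomal RNA, *Lars2* among them, which together had 40845 CPM against a median of 165 CPM at day 0. The same 4 genes had a median of 311 CPM at day 2 (up to 2179) and of 1316 CPM at day 6 (up to 4982). Without the library that stood apart, 7, 6 and 6 members were called between days and 3, 4 and 4 between clones. Between genotypes 0 were called, and all these numbers were the same as with that library.

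Between day 0 and day 2, transcripts of the membrane-bound *Mmp14*, the gelatinase *Mmp2* and the inhibitors *Timp1*, *Timp2* and *Timp3* fell in both clones. *Timp3*, an inhibitor that binds to the matrix, fell most, by a log2 fold change of -5.02 (standard error, SE, 0.196), or 32.4-fold. *Mmp2* was 19.2-fold lower, *Timp2* 8.95-fold, *Mmp14* 6.92-fold and *Timp1* 5.77-fold. In edgeR's quasi-likelihood test between these days, 73.3% of 16723 genes were called (Benjamini-Hochberg adjusted p-value under 0.05), 37.5% with a lower level at day 2. All 7 members that passed the filter were called lower, with a median log2 fold change of -3.16 against -0.02 for all genes. For *Mmp11* this mean over clones came with no call in clone 66 (-0.10, adjusted p = 0.634). *Mmp13* passed that filter with more than 12 counts only in libraries of clone 66 at day 0 and therefore adds little to this number, and *Mmp3* and *Timp4* did not pass. For 5 of the 7 members no library of day 2 overlapped with any library of day 0, which held for 14.2% of all genes in the same direction. In bulk RNA, fewer cells of a kind and less RNA per cell cannot be told apart.

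**Figure D1:**
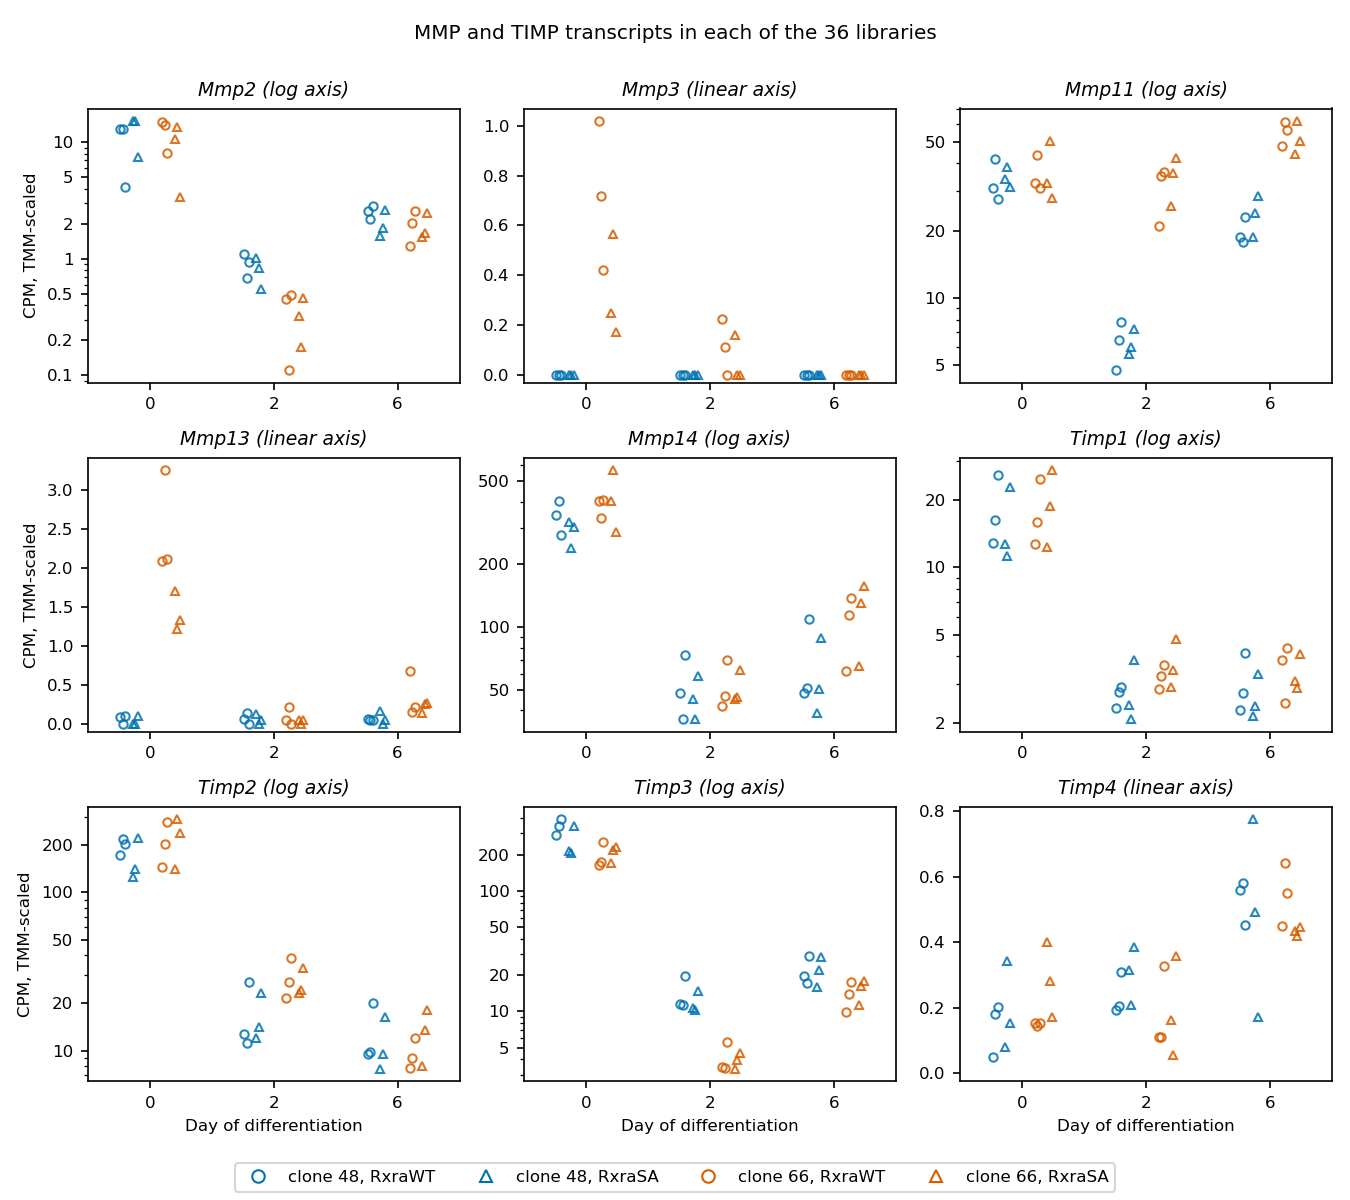
CPM, scaled by TMM, of each member in all 36 libraries by day of differentiation, with clone by colour and genotype by symbol. *Mmp3*, *Mmp13* and *Timp4* have linear axes because of zeros or few counts, and the other panels have log axes. *Mmp14*, *Mmp2* and *Timp1* to *Timp3* were lower at days 2 and 6 than at day 0 in every library, and *Mmp11* split by clone at day 2.

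*Mmp14* (chromosome 14, 54431612 to 54445364, plus strand) had 240 to 565 CPM at day 0 (median 339), 36.2 to 74.1 at day 2 (median 46.8) and 38.7 to 157 at day 6 (median 77.1). No library of day 2 or day 6 reached the lowest library of day 0, while days 2 and 6 overlapped. The log2 fold change was -2.79 between days 0 and 2 (SE 0.190, adjusted p = 3.35e-15), -2.05 between days 0 and 6 (SE 0.184, adjusted p = 5.44e-12) and 0.74 between days 2 and 6 (SE 0.180, adjusted p = 0.000600). The recovery after day 2 was clearer in clone 66, from 41.8 to 69.5 CPM (median 46.8) to between 61.6 and 157 CPM (median 123), with a log2 fold change of 1.09 (SE 0.253, adjusted p = 0.000584). In clone 48 it went from a median of 46.9 to 50.8 CPM, a log2 fold change of 0.35 with a 95% interval from -0.16 to 0.87 (adjusted p = 0.254), and the difference between the clones in this step was not past the threshold (0.74, adjusted p = 0.266).

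*Mmp2* (chromosome 8, 92827291 to 92853420, plus strand), which degrades denatured collagen and basement membrane collagen, went from 3.41 to 15.2 CPM at day 0 (median 12.99) to 0.111 to 1.11 CPM at day 2 (median 0.521) and 1.30 to 2.84 CPM at day 6 (median 2.12). The 3 days did not overlap, with day 2 lowest. At day 2 these values rested on 2 to 17 counts per library. The log2 fold change was -4.26 between days 0 and 2 (SE 0.267, adjusted p = 3.66e-16) and 1.86 between days 2 and 6 (SE 0.277, adjusted p = 4.33e-07), which left day 6 lower than day 0 by -2.40 on the log2 scale (SE 0.229, adjusted p = 2.32e-11). *Mmp2* was the 1 member of the 7 tested whose libraries of day 6 all lay above those of day 2, where 17.1% of genes did not overlap in either direction.

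*Timp3* had 163 to 392 CPM at day 0 (median 225), 3.36 to 19.8 at day 2 (median 7.88) and 9.87 to 28.9 at day 6 (median 17.3). Its libraries of days 2 and 6 lay far below those of day 0 and overlapped with each other. The log2 fold change was -3.78 between days 0 and 6 (SE 0.183, adjusted p = 2.89e-19) and 1.23 between days 2 and 6 (SE 0.175, adjusted p = 1.91e-07). The gene lies on the plus strand of chromosome 10, 86300372 to 86349506, inside the antisense gene *Syn3*, and 1733 exon bases belong to both genes. Since read pairs were counted without strand and dropped where they met both genes, the counts of *Timp3* exclude part of its transcript. Its FPKM, above and below, were divided by all 8144 exon bases and may therefore understate its level. The medians of *Syn3* itself were 1.46, 0.250 and 0.307 CPM on the 3 days. Its log2 fold changes were -2.38 between days 0 and 2 (adjusted p = 9.35e-12) and 0.09 between days 2 and 6 (adjusted p = 0.790).

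*Timp2* (chromosome 11, 118301069 to 118355740, minus strand), the inhibitor that also serves pro-MMP2 activation, went on falling after day 2. It had 126 to 288 CPM at day 0 (median 202), 11.1 to 38.3 at day 2 (median 23.2) and 7.72 to 20.0 at day 6 (median 9.68). Day 0 stood clear of both later days, and days 2 and 6 overlapped. The log2 fold changes were -3.16 (SE 0.204, adjusted p = 7.76e-16) between days 0 and 2 and -0.88 (SE 0.196, adjusted p = 0.000198) between days 2 and 6, together -4.04 (SE 0.213, adjusted p = 3.18e-18) between days 0 and 6, or 16.5-fold. The later step was -1.30 in clone 66 (adjusted p = 0.000153) and -0.48 in clone 48, where the 95% interval from -1.03 to 0.07 included no change (adjusted p = 0.140), and the difference between the clones in this step was not past the threshold (-0.82, adjusted p = 0.237).

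*Timp1* (chromosome X, 20870166 to 20874735, plus strand), a soluble inhibitor, had 11.3 to 27.3 CPM at day 0 (median 16.2), 2.08 to 4.77 at day 2 (median 2.92) and 2.17 to 4.35 at day 6 (median 2.98). Days 2 and 6 were both below day 0 in every library and covered nearly the same range. The log2 fold change was -2.53 between days 0 and 2 (SE 0.163, adjusted p = 7.27e-16) and 0.02 between days 2 and 6, with a 95% interval from -0.32 to 0.35 (adjusted p = 0.933). *Timp1* lies within the span of *Syn1*, which is on the opposite strand and had 0.109 to 0.847 CPM over all libraries.

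*Timp4* (chromosome 6, 115241892 to 115252205, minus strand), the inhibitor best known from heart and fat, was at the edge of detection with 1 to 14 counts per library. It had 0.0494 to 0.400 CPM at day 0 (median 0.163), 0.0577 to 0.386 at day 2 (median 0.208) and 0.172 to 0.777 at day 6 (median 0.473). All but 1 of the libraries of day 6 exceeded every library of day 0, as the plot of member values shows. In the model with separate clones, in which it passed the filter, *Timp4* was higher at day 6 than at day 0 by 1.57 on the log2 scale in clone 48 (SE 0.371, adjusted p = 0.000653) and by 1.27 in clone 66 (SE 0.339, adjusted p = 0.00206). It passed this filter through libraries of day 6, its highest group, while those of days 0 and 2 had at most 8 counts. These calls are therefore given as a description. Summed over the 6 libraries, 52 counts at day 6 and 18 at day 0 gave a ratio of 2.98 in clone 48 (95% Clopper-Pearson interval 1.71 to 5.41, counting error only), and 57 and 28 counts gave 2.28 in clone 66 (1.43 to 3.73). *Timp4* lies inside *Syn2* on the opposite strand, with 90 exon bases in common. *Syn2* moved the same way, from a median of 0.485 CPM at day 0 to 1.22 at day 2 and 4.93 at day 6 (3.41 on the log2 scale between days 0 and 6, adjusted p = 3.31e-16). The part of *Syn2* reads in the *Timp4* counts was not tested.

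Between days 0 and 6, 68.3% of genes were called, 35.4% with a lower level at day 6. Of the 7 members, 6 were lower and *Mmp11* was not called. The 6 include *Mmp13*, which passed the filter mainly through clone 66 at day 0 and so adds little to this number. Between days 2 and 6 the figure was 62.0%, with 31.9% higher and 30.1% lower at day 6, and 5 members were higher (*Mmp2*, *Timp3*, *Mmp13*, *Mmp11* and *Mmp14*), *Timp2* was lower and *Timp1* was not called. The call of *Mmp13* rested on 13 counts in 12 libraries at day 2 and 40 at day 6. Its log2 fold change of 1.45 (adjusted p = 0.0404) was no longer past the threshold without replicate 1 of clone 66 (1.01, adjusted p = 0.237), without replicate 2 or 3 of clone 66 (1.56 and 1.18, adjusted p = 0.0642 and 0.162) or without replicate 3 of clone 48 (1.55, adjusted p = 0.0520).

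Proteases and inhibitors were also summed. The 5 MMP genes together had a median of 75.1 FPKM at day 0 (57.9 to 118), 15.2 at day 2 (8.50 to 25.8) and 27.5 at day 6 (13.8 to 45.3). The 4 TIMP genes together had 105 (70.5 to 130), 10.1 (7.18 to 14.7) and 7.88 (6.50 to 13.4) FPKM. Between days 2 and 6 the median of the TIMP sum went from 10.8 to 8.20 FPKM in clone 66 and from 7.36 to 7.88 FPKM in clone 48. The MMP sum per TIMP sum in the same library was 0.782 at day 0 (median, 0.448 to 1.19), 1.51 at day 2 (1.04 to 1.98) and 2.99 at day 6 (2.00 to 6.07). Every library of day 6 lay above every library of day 2, and the ranges of days 0 and 2 overlapped between 1.04 and 1.19. At day 6 the ratio was 2.00 to 2.27 in clone 48 and 3.70 to 6.07 in clone 66, without overlap. These are ratios of transcript levels, in which the FPKM of *Timp3*, and so the TIMP sum, may be too low. *Mmp14* made up 68.6 to 82.4% of the MMP sum at day 0 and 36.7 to 66.6% at day 6.

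**Figure D2:**
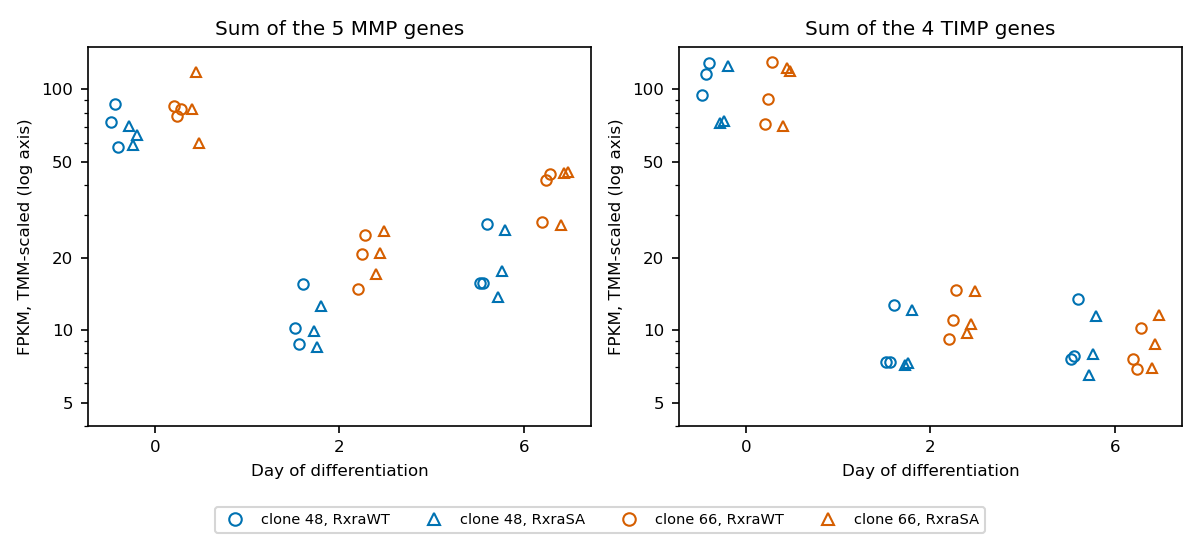
Sum of the 5 MMP genes (left) and of the 4 TIMP genes (right) in each library, as FPKM scaled by TMM on log axes, by day, clone (colour) and genotype (symbol). The TIMP sum remained between 6.50 and 14.7 FPKM after day 0, while the median of the MMP sum went from 15.2 at day 2 to 27.5 FPKM at day 6, where clone 66 had 27.4 to 45.3 and clone 48 13.8 to 27.5 FPKM.

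Of the members with counts in every library, *Mmp11* had the largest difference between clones, at day 2 (stromelysin-3, an MMP that is secreted in active form, on the minus strand of chromosome 10, 75923222 to 75936496). In clone 48 it went from 27.7 to 42.0 CPM at day 0 (median 32.6) to 4.75 to 7.81 CPM at day 2 (median 6.27) and back to 17.8 to 28.5 CPM at day 6 (median 20.96). In clone 66 it had 28.1 to 50.4 CPM at day 0 (median 32.6), 20.9 to 42.2 at day 2 (median 35.8) and 44.2 to 62.0 at day 6 (median 53.5). The clones overlapped at day 0, and at days 2 and 6 every library of clone 66 lay above every library of clone 48. The log2 fold change between days 0 and 2 was -2.38 in clone 48 (SE 0.183, adjusted p = 2.24e-12) and -0.10 in clone 66, with a 95% interval from -0.45 to 0.25 (adjusted p = 0.634). The difference between these changes was 2.28 (SE 0.247, adjusted p = 2.06e-07), and between days 2 and 6 it was -1.05 (SE 0.246, adjusted p = 0.00708), which was no longer past the threshold without replicate 3 of clone 66 (-0.91, adjusted p = 0.0585). Between days 0 and 6 *Mmp11* changed by -0.63 in clone 48 (adjusted p = 0.00258) and by 0.61 in clone 66 (adjusted p = 0.00282), and the mean over the clones of -0.14 (adjusted p = 0.592) describes neither. *Mmp11* shares 155 exon bases with *Chchd10* on the opposite strand, which rose in both clones, from 0.0384 to 0.543 CPM at day 0 to 0.937 to 3.10 at day 2 and 3.55 to 9.42 at day 6.

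**Figure D3:**
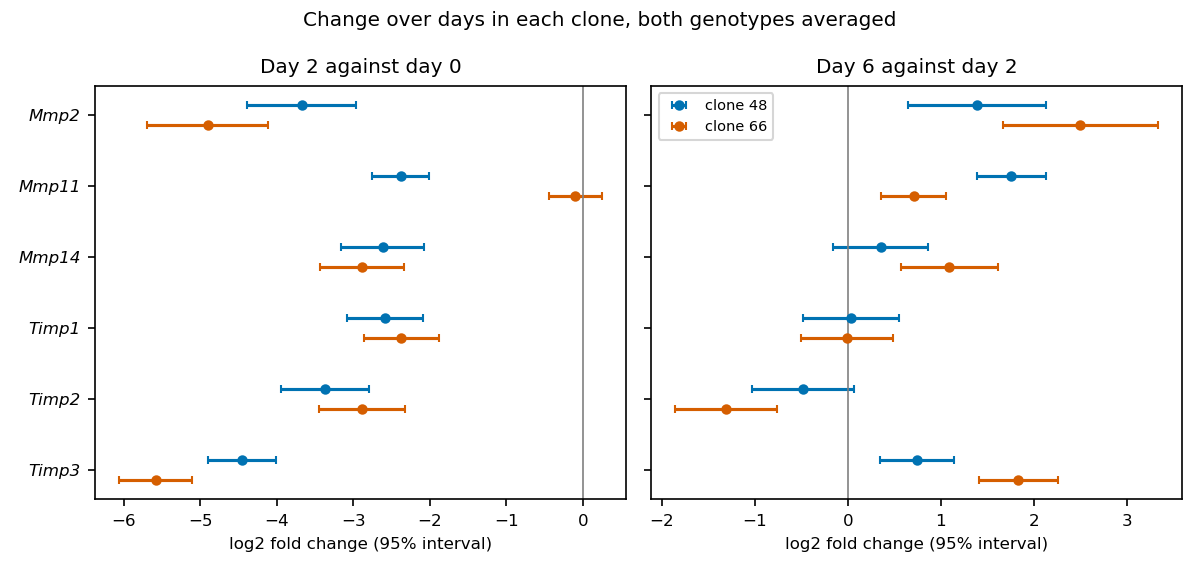
Log2 fold changes with 95% intervals between days 0 and 2 (left) and between days 2 and 6 (right) in clone 48 and clone 66, for *Mmp2*, *Mmp11*, *Mmp14*, *Timp1*, *Timp2* and *Timp3*. The change of *Mmp11* between days 0 and 2 was -2.38 in clone 48 and -0.10 in clone 66.

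Within clone 48, 6 of the 9 members were called between days 0 and 2 (64.6% of genes), 7 between days 0 and 6 (55.4%) and 4 between days 2 and 6. Those 4, *Mmp2*, *Mmp11*, *Timp3* and *Timp4*, were all higher at day 6. In this step 25.1% of genes were called higher and 24.9% lower. *Timp4* passed the filter through libraries of day 6, so in both clones it adds little to the numbers that involve day 6. Within clone 66 the numbers were 7 (60.8%), 9 (56.5%) and 8 (49.3%), and the counts of *Mmp3* and *Mmp13* that let them pass the filter came mainly from day 0 of that clone. In the whole table, 22.7% of the 17589 genes tested between the clones differed at day 0, 28.6% at day 2 and 25.0% at day 6 (adjusted p-value under 0.05, edgeR). Of the 9 members 3, 4 and 4 differed on these days. Without overlap of the libraries the numbers were 2, 3 and 1, against 13.4%, 17.8% and 14.7% of all genes. At day 0 the 3 called members were *Mmp3*, *Mmp13* and *Timp3*, and the 2 without overlap were *Mmp3* and *Mmp13*, which passed the filter through their high libraries of clone 66 on that day and so had to differ, and nothing is read from these counts. A change over time that differed between clones was called for 6.22% of all genes and 3 members between days 0 and 2, with *Mmp11* to the side of clone 66 (3.43% of genes) and *Mmp13* and *Timp3* to that of clone 48 (2.79%). Between days 2 and 6 it was called for 5.81% and 2 members, *Timp3* to the side of clone 66 (3.17%) and *Mmp11* to that of clone 48 (2.64%).

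*Timp3* was lower in clone 66 on each day. Clone 48 had 205 to 392 CPM at day 0 (median 317), 10.2 to 19.8 at day 2 (median 11.4) and 15.9 to 28.9 at day 6 (median 20.98). Clone 66 had 163 to 253 (median 197), 3.36 to 5.56 (median 3.73) and 9.87 to 17.9 CPM (median 15.2). The clones were fully apart at day 2 alone. The log2 fold change of clone 66 against clone 48 was -0.56 at day 0 (adjusted p = 0.0296), -1.68 at day 2 (SE 0.209, adjusted p = 2.72e-07) and -0.59 at day 6 (adjusted p = 0.0238). The change of this difference was -1.12 between days 0 and 2 (SE 0.278, adjusted p = 0.0106) and 1.09 between days 2 and 6 (SE 0.283, adjusted p = 0.0159). Without replicate 2 of clone 48 these became -1.16 and 1.09 (adjusted p = 0.0658 and 0.0982), and without replicate 2 of clone 66 -1.10 and 0.99 (adjusted p = 0.0786 and 0.160). The calls at days 0 and 6 were likewise lost without replicate 3 of clone 48 (-0.37 and -0.36, adjusted p = 0.122 on both days), replicate 1 of clone 66 (-0.43 and -0.42, adjusted p = 0.138 and 0.150) or replicate 2 of clone 66 (-0.53 and -0.64, adjusted p = 0.141 and 0.0788), and at day 0 also without replicate 2 of clone 48 (-0.63, adjusted p = 0.0605).

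*Mmp3* and *Mmp13*, the pair on chromosome 9 shown above, were largely transcripts of clone 66 at day 0. *Mmp3* had 0 counts in all 18 libraries of clone 48. In clone 66 it had 20, 15 and 11 counts in RxraWT and 5, 12 and 4 in RxraSA at day 0, 4, 2 and 0 and 3, 0 and 0 at day 2, and 0 at day 6. With 3 counts over the 6 libraries as the limit that 0 allows, *Mmp3* was at least 18.02-fold higher in clone 66 than in clone 48 at day 0, and in clone 66 at least 19.9-fold higher at day 0 than at day 6. The difference at day 0 was called by edgeR (adjusted p = 0.000777) but not by DESeq2 (adjusted p = 0.326), and *Mmp3* passed the filter through these libraries alone. *Mmp13* had 0 to 2 counts in clone 48 and 26 to 68 in clone 66 at day 0, 0 to 2 and 0 to 4 at day 2, and 0 to 3 and 3 to 12 at day 6. At day 0 the sums of 255 and 6 counts gave a ratio of 34.3 between the clones (95% interval 15.5 to 94.3), at day 2 those of 7 and 6 counts a ratio of 1.00 (0.289 to 3.62) and at day 6 those of 33 and 7 counts a ratio of 4.14 (1.80 to 11.1). In clone 66 *Mmp13* fell by a log2 fold change of -4.80 between days 0 and 2 (SE 0.459, adjusted p = 2.57e-10) and rose by 2.14 between days 2 and 6 (SE 0.616, adjusted p = 0.00456). The fall is given as a description, since *Mmp13* passed the filter mainly through its high libraries of clone 66 at day 0. In clone 48 its few counts did not allow a change to be detected (0.26 with a 95% interval from -1.49 to 2.01 between days 0 and 2). The difference between the clones in the first step was -5.06 (SE 1.19, adjusted p = 0.00697), a value given as a description, since *Mmp13* passed the filter mainly through clone 66 at day 0 and had 6 counts in clone 48 on both days. It was not called without replicate 1 (-4.62, adjusted p = 0.134) or replicate 2 (-4.32, adjusted p = 0.159) of clone 48. At day 6 the clone difference of 1.97 (adjusted p = 0.0156) was lost without replicate 1 of clone 66, replicate 2 of clone 48 or replicate 3 of clone 48 (1.64, 1.68 and 1.87, adjusted p = 0.0767, 0.0674 and 0.0525).

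Of the remaining members, *Mmp14* was higher in clone 66 at day 6 (log2 fold change 0.81, adjusted p = 0.0173), with medians of 123 and 50.8 CPM and overlapping ranges. *Mmp2* was lower in clone 66 at day 2 (-1.32, adjusted p = 0.0285), with 0.111 to 0.491 CPM against 0.551 to 1.11, and *Timp2* was higher (0.73, adjusted p = 0.0361), with medians of 25.5 and 13.5 CPM. Each of these calls was lost when single replicates were left out. For *Mmp14* the values were 0.59, 0.63, 0.72 and 0.54 without replicates 1 and 2 of clone 48 and replicates 2 and 3 of clone 66 (adjusted p = 0.176, 0.161, 0.103 and 0.176). For *Mmp2* they were -1.15, -1.36, -1.39 and -0.97 without replicates 1 and 2 of clone 48 and replicates 1 and 2 of clone 66 (adjusted p = 0.132, 0.0687, 0.0742 and 0.158). For *Timp2* they were 0.55, 0.58, 0.80 and 0.52 without replicates 1 and 2 of clone 48 and replicates 2 and 3 of clone 66 (adjusted p = 0.180, 0.228, 0.0813 and 0.220). *Timp1* was not called between the clones on any day, with log2 fold changes of 0.13, 0.35 and 0.30 and 95% intervals from -0.32 to 0.58, from -0.16 to 0.85 and from -0.20 to 0.80.

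The levels of 4 members also followed the replicate number. Replicate 3 was the highest of the 3 replicates in 12 of the 12 combinations of clone, genotype and day for *Timp1* and *Timp3*, in 10 for *Timp2* and in 9 for *Mmp14*. It was highest in 7 for *Timp4*, in 6 for *Mmp2* and *Mmp11* and in 3 for *Mmp13*, and *Mmp3* had too many zeros to be ordered. For *Mmp2* at day 0 replicate 3 was lowest, with 4.12, 7.47, 8.09 and 3.41 CPM against 10.7 to 15.2 CPM in the others. The share over all genes was not computed. Within a clone and day the libraries of a number deviated together. The number was shared by both genotypes, so that comparisons of the genotypes were balanced for it.

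RxraSA cells did not differ detectably from RxraWT cells in any member. Between genotypes edgeR called 0.0% of genes and 0 of the 7 members at days 0, 2 and 6. At an unadjusted p-value under 0.05 there were 139, 162 and 125 genes at days 0, 2 and 6, none of them a member, and DESeq2 called 0 genes on each day. Among 16723 genes these edgeR numbers were well below the share of 0.05 that chance alone would give, so the test was conservative. Its model held neither the replicate number nor a clone difference by day, and the lack of calls does not show equal levels. *Mmp14* had 278 to 408 CPM (median 374) in RxraWT and 240 to 565 (median 311) in RxraSA cells at day 0, 36.5 to 74.1 (median 47.9) and 36.2 to 62.3 (median 46.0) at day 2, and 48.4 to 138 (median 85.5) and 38.7 to 157 (median 77.1) at day 6. On the log2 scale the genotypes differed by -0.06, -0.12 and -0.0028, and the 95% intervals, from -0.57 to 0.45, from -0.63 to 0.40 and from -0.51 to 0.51, left room for changes of up to 0.63 on the log2 scale. These intervals come from the model without pairing by replicate number, so their width includes spread between replicates and between clones over days. For *Timp3* the log2 fold changes were -0.15, -0.18 and 0.08, with intervals from -0.62 to 0.32, from -0.69 to 0.32 and from -0.40 to 0.57. *Timp1* had -0.06, 0.13 and -0.15, and *Mmp11* had 0.05, 0.11 and 0.08. Over the 6 pairs of the same clone and replicate number, the RxraSA library was the lower in 5 for *Mmp14* and *Timp3* at day 2 and for *Mmp2*, *Timp1* and *Timp4* at day 6. It was the higher in 5 pairs for *Timp1* at day 2 and for *Timp4* at days 0 and 2. In the other pair tallies of *Mmp2*, *Mmp11*, *Mmp14* and the TIMP genes neither genotype was higher in more than 4 pairs. The share over all genes was not computed for these tallies, and nothing is read from them.

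The widest intervals and the largest estimates between genotypes were those of *Mmp13*, with -0.74 (from -1.60 to 0.12), -0.63 (from -2.78 to 1.51) and -0.42 (from -1.85 to 1.01) at days 0, 2 and 6. In clone 66 at day 0, where the gene was best measured, RxraWT libraries had 2.09, 3.25 and 2.11 CPM (41, 68 and 55 counts) and RxraSA libraries 1.70, 1.22 and 1.34 CPM (34, 26 and 31 counts). The genotypes did not overlap there, which held for 2.79% of all genes, and clone 66 alone gave a log2 fold change of -0.80 with an adjusted p-value of 1 in edgeR. *Mmp3* had the same order in the 3 pairs of clone 66 at day 0, with the counts given above. No member was called for a change between days that depended on the genotype, nor was any other gene (0.0% called between days 0 and 2 and between days 2 and 6, with 144 and 153 genes at an unadjusted p-value under 0.05 and none called by DESeq2). The edgeR tests used the same model and were conservative too.

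**Figure D4:**
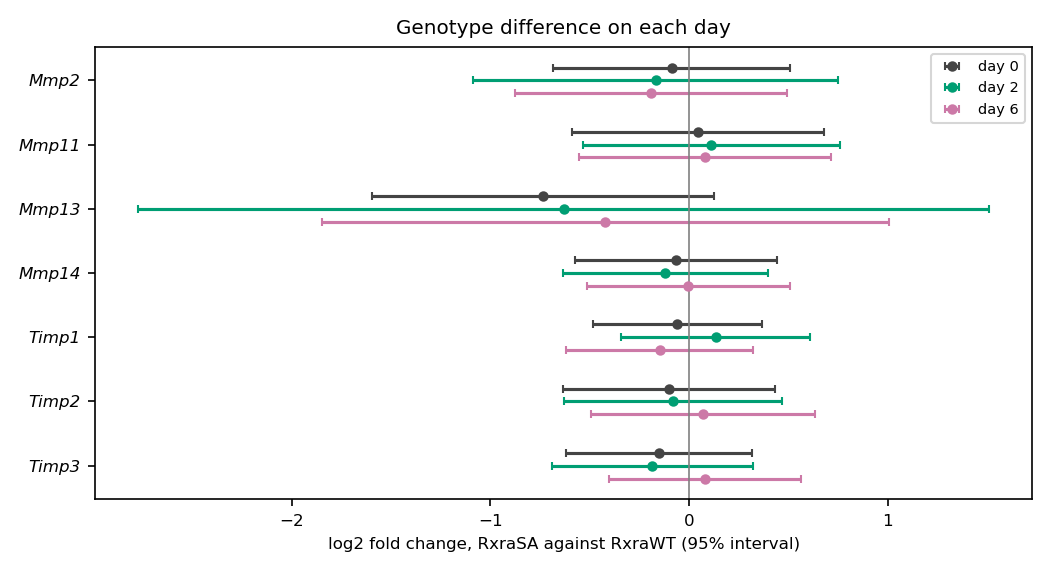
Log2 fold changes of RxraSA against RxraWT cells with 95% intervals for the 7 members tested, at days 0, 2 and 6. All intervals include 0, and that of *Mmp13* at day 2, from -2.78 to 1.51, is the widest.

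The other genes of the pathway were taken from lists of named genes. Of 18 further MMP genes, 6 passed the filter between days and the others stayed at or below 1.08 CPM, the highest level of the gelatinase *Mmp9*. *Mmp23*, a membrane-bound MMP, fell with the members, from a median of 124 CPM at day 0 to 3.23 at day 2 and 4.32 at day 6 (log2 fold change -5.18 between days 0 and 2, SE 0.144, adjusted p = 5.06e-26), and *Mmp15* fell by -1.42 (adjusted p = 6.23e-06). *Mmp28* (epilysin) and *Mmp19* rose between days 0 and 2, by 2.44 (SE 0.135, adjusted p = 1.06e-17) and 0.91 (adjusted p = 2.31e-06). *Mmp19* resembled *Mmp11* in that clone 66 was higher at day 2, with a median of 68.3 CPM against 35.1 CPM in clone 48 (log2 fold change 0.99, adjusted p = 4.71e-06) and similar medians at day 0 (26.4 and 26.6 CPM). Between days 0 and 2, 2 of the 6 genes rose and 3 fell, with a median of -0.37.

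Of 27 ADAM and ADAMTS genes, which code for metalloproteinases that shed membrane proteins or cleave matrix proteoglycans, 18 were tested, and between days 0 and 2 10 of them fell and 4 rose, with a median log2 fold change of -0.42. The aggrecanase *Adamts5* fell by -4.21 (SE 0.154, adjusted p = 1.03e-22) and differed from day 0 by -3.28 at day 6, and *Adamts1* fell by -3.25 (adjusted p = 3.95e-17). *Adamts15* went the other way, from a median of 0.0964 CPM at day 0 to 0.313 at day 2 and 15.1 at day 6 (log2 fold change 7.31, SE 0.223, adjusted p = 5.59e-25). *Adam12* had a median of 25.0 CPM at day 0, 184 at day 2 and 91.8 at day 6.

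In the plasminogen system, whose proteases activate several pro-MMPs, 5 of 9 genes were tested. Tissue plasminogen activator *Plat* fell from a median of 145 to 3.34 CPM between days 0 and 2 (log2 fold change -5.40, SE 0.163, adjusted p = 4.44e-25) and urokinase *Plau* from 17.9 to 0.716 CPM (-4.62, SE 0.161, adjusted p = 2.89e-23). Between days 0 and 2, 3 of the 5 genes fell, with a median of -1.24.

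Among 15 genes that activate, inhibit or clear MMPs, 10 were tested, of which 5 fell and 2 rose between days 0 and 2, with a median of -0.49. *Reck*, a membrane-anchored inhibitor of MMPs, fell from a median of 12.7 to 2.02 CPM (log2 fold change -2.59, SE 0.186, adjusted p = 1.35e-14) and had 2.27 CPM at day 6. The thrombospondins *Thbs1* and *Thbs2* fell by -6.47 and -3.64 (adjusted p = 1.23e-16 and 7.28e-17). *Bsg*, known as the extracellular MMP inducer EMMPRIN, rose by 2.55 between days 0 and 6 (SE 0.0817, adjusted p = 2.35e-24). The proprotein convertase *Furin*, which cleaves pro-MMP14 and pro-MMP11, had medians of 20.3, 26.2 and 24.9 CPM, with a log2 fold change of 0.14 and a 95% interval from -0.71 to 0.99 between days 0 and 2. *Pcsk6*, another convertase, was a gene of clone 66, with 13.1 to 29.0 CPM there and 0 to 1.24 CPM in clone 48 over all days.

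Of the 6 substrate genes, the fibrillar collagens *Col1a2*, *Col1a1* and *Col3a1* fell between days 0 and 2, by -4.63, -3.98 and -3.78 (adjusted p = 1.88e-16, 2.76e-10 and 1.08e-13), 5 of the 6 fell in all, and the median was -2.61. Between days 2 and 6, 4 rose, with *Col3a1* at 2.87 and fibronectin *Fn1* at 2.75 (adjusted p = 9.03e-11 and 1.12e-08). At day 6 *Fn1* was above its level of day 0 by 1.31 (adjusted p = 0.000514), while *Col1a2* was below it, with a log2 fold change of -2.84 (adjusted p = 6.37e-12).

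Members that shared a course over days were compared through the 12 means of clone, genotype and day, with Pearson's r of log2 CPM as a description, since the 12 means share 2 clones and 3 days. *Timp1* and *Timp2* had r = 0.971, *Mmp2* and *Timp3* r = 0.967 and *Mmp14* and *Timp1* r = 0.963, whereas the correlation of *Mmp11* with the other members lay between 0.242 (*Timp3*) and 0.504 (*Mmp14*). Among genes that averaged 1 or more in log2 CPM, *Pdpn* and *Csf1* were most like *Timp1* (r = 0.997 and 0.996), *Vgll3* and *B4galt5* most like *Timp2* (0.995 and 0.994), *Synm* and *Tprn* most like *Timp3* (0.992 for both), *Zfp324* and *Lrrc17* most like *Mmp2* (0.994 and 0.992), *Ccdc74a* and *4933427D14Rik* most like *Mmp14* (0.995 and 0.994), and *Rnd2* and *Pappa*, itself a metalloproteinase, most like *Mmp11* (0.976 and 0.972). For *Mmp13* the closest genes were *Gpc1* and *Scrn2* (0.939 and 0.938).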

How the data were processed

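RNA was sequenced from 36 libraries of 2 clones, 2 genotypes and 3 days. The deposited files hold raw counts of read pairs per gene, which the authors made with STAR 2.7.0d on GRCm38 and featureCounts 1.6.2 on exons of GENCODE M21, without strand and leaving out pairs that mapped to several places or genes. All 36 file headers carry lib1 in the name of the alignment file, and what it stands for is not given in the sources used here. Total counts were 11351078 to 24349263 per library, which limits the precision of genes with few counts. Replicates of a group differed by more than sampling noise (chi-square per degree of freedom 8.18 to 126). Each was counted as 1 sample, although this spread does not show whether the replicates were technical or independent.

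Counts were analysed in edgeR 4.0.16 (R 4.3.3) with filterByExpr, TMM scaling and the quasi-likelihood test (the earlier form of the fit, as in edgeR 3.24.3 named in the submitters' processing notes), and Benjamini-Hochberg adjustment over all genes tested. Days and genotypes were compared in a model of genotype by day with clone as covariate (16723 genes), clones in a model with 1 mean for each of 12 groups (17589 genes). A gene was called at an adjusted p-value under 0.05. The two-sided intervals of count ratios are Clopper-Pearson intervals. FPKM were computed from TMM-scaled counts and exon length. The numbers of replicates paired the genotypes within clone and day, since all 18 same-numbered pairs correlated above 0.1 in their deviations from group means (0.176 to 0.930 over 9381 genes).

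All members were described. From other lists, genes were named by rule as the 4 with the largest called change per comparison at an average log2 CPM of at least 1, besides *Reck*, *Plau*, *Plat*, *Furin* and *Adamts5*, and *Mmp9* and the cell type markers were named after their values were seen. One gene of these lists is not reported here. The members and lists were chosen with earlier results of these data known. Alternatives were DESeq2 1.42.0, RLE factors, library size alone, no filter or 1 CPM in 6 libraries, the current edgeR fit, no clone term, each clone alone, the replicate block and leaving out each replicate or the library that stood apart. Tables and figures used Python 3.11.15, pandas 2.3.3, numpy 2.4.6, scipy 1.17.1 and matplotlib 3.10.9.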

Additional observations from a re-analysis of the deposited data

Results flagged for a closer look

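The gap of the highest or lowest library to the others was large for the range of its group in 7 of 102 groups of libraries examined, and chance alone marks about 1 in 20. For *Mmp13* the libraries were clone 66 RxraWT replicate 1 at day 6 (0.677 CPM from 12 counts, other clone 66 libraries 0.145 to 0.268 and other RxraWT libraries 0.0567 to 0.220), clone 66 RxraWT replicate 2 at day 2 (0.221 CPM from 4 counts, others at most 0.0560) and clone 48 RxraSA replicate 1 at day 6 (0.167 CPM from 3 counts, others at most 0.0622). *Mmp3* had 0.162 CPM from 3 counts in clone 66 RxraSA replicate 1 at day 2 and 0 in the other RxraSA libraries of that day. *Timp2* had 20.0 CPM in clone 48 RxraWT replicate 3 at day 6, against 7.79 to 12.1 CPM in the other RxraWT libraries. *Timp3* had 343 CPM in clone 48 RxraSA replicate 3 at day 0, against 170 to 231 CPM in the other RxraSA libraries.

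The clones differed in the change between days 0 and 2, by a test of the difference itself, for *Mmp11* (log2 fold change 2.28), *Timp3* (-1.12) and *Mmp13* (-5.06), and between days 2 and 6 for *Mmp11* (-1.05) and *Timp3* (1.09). *Mmp13* passed the filter mainly through clone 66 at day 0, the group that makes its value large. Clone and library pool cannot be told apart in these values.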

How the results depend on the processing

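Of 1653 log2 fold changes of members under alternative settings, 1608 kept their direction and their side of the threshold, 38 lost a call, 6 gained one and 1 reversed. The reversal was *Mmp11* between days 0 and 6, with 0.59 in clone 66 alone (adjusted p = 0.00954 in edgeR) and -0.64 in clone 48 alone (adjusted p = 0.00158), which follows from the use of 1 clone. Between days 2 and 6, 3 members were called in clone 48 alone. Leaving out single replicates gave 1 to 3, 2 to 4 and 2 to 3 members called between clones at days 0, 2 and 6. For clone differences over time it gave 1 to 4 and 1 to 2 members and 541 to 1248 and 522 to 1391 genes, for the steps from day 0 to 2 and from day 2 to 6, and the cause was not tested. With the replicate number as a block these differences were called for 2166 and 2082 genes, against 1094 and 1022 without it, and the block added *Timp2* (0.57 and -0.84, adjusted p = 0.0331 and 0.00277) and the change of *Timp2* in clone 48 between days 2 and 6 (-0.48, adjusted p = 0.00287). The block changed no call between the genotypes. Over days the numbers are not known to pair the libraries (55 of 72 pairs correlated above 0.1, and 24 of 36 libraries correlated best with their own number). Without TMM the median of all genes moved to -0.27 and -0.22 between day 0 and days 2 and 6, and the share of higher genes among those called to 33.6% and 34.9%, against 48.9% and 48.2%, while between clones it was 40.4% and 40.7% at days 2 and 6, against 47.8% and 53.8%. Depth limited *Mmp3*, *Mmp13* and *Timp4*, whose counts were at most 20, 68 and 14 in a library.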
